A study of Homo sapiens with 12 samples.

Results

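The cyclins of classes D, E, G and L were followed in human shA673-1c cells after transcription was blocked. The 9 genes CCND1, CCND2, CCND3, CCNE1, CCNE2, CCNG1, CCNG2, CCNL1 and CCNL2 were taken by name from a table of 26334 genes. Of these, 8 had a count in every library and passed the filter on low counts, as did 12775 genes in all, and CCND2 did not pass it.

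shA673-1c is a line of the Ewing sarcoma cell A673 in which doxycycline switches on a hairpin that knocks down EWS::FLI1, the fusion that drives this tumour. Every group carried the same knockdown: per the labels, all cells had 4 days of doxycycline at 1 µg per ml before the course began. Actinomycin D, which stops RNA polymerases on DNA, was then given at 5 µM, and polyadenylated RNA was sequenced after 0, 1, 2 and 4 h with 3 biological replicates per time. The later times were compared with 0 h. Cells without doxycycline were not analysed here, so no value below describes the effect of the fusion on a cyclin. The course asks how long an mRNA outlasts the stop of transcription.

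Cyclins are the regulatory subunits of cyclin-dependent kinases (CDKs). D cyclins bind CDK4 and CDK6 and carry growth signals to the retinoblastoma protein RB, and E cyclins bind CDK2 and act at the entry into S phase. In Ewing sarcoma CCND1 is known as a gene whose expression is high and linked to the fusion. G cyclins are atypical: CCNG1 is a target of p53, and CCNG2 is a target of FOXO factors that rises when cells leave the cycle. L cyclins bind CDK11 and act in pre-mRNA splicing, not in the cell cycle proper. D and E cyclin proteins are short-lived and removed by ubiquitin ligases, so their mRNA supply matters for their level.

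Libraries held 9381855 to 10929000 counts. Levels are CPM, a gene's count as a share of the library total after scaling by TMM, a factor per library that centres the typical gene, and changes are on the log2 scale. With no spike-in in the table, each value describes an mRNA's share of the pool, and in these bulk libraries fewer cells and less RNA per cell cannot be told apart. Unless another model is named, adjusted p-values are from edgeR's quasi-likelihood test with Benjamini-Hochberg adjustment over all 12775 genes, and a gene counts as called under 0.05. The median gene moved by 0.054 (log2) at 4 h under TMM, by -0.096 when libraries were scaled by their totals and by -0.32 when they were scaled to 77 ribosomal protein mRNAs, which are long-lived. The first principal component of the 12 libraries held 59.0% of the variance and the second 15.9%. FLI1, counted per gene symbol and so not split into fused and unfused mRNA, stood at 7.42 ± 0.639 CPM at 4 h and 20.5 ± 1.05 CPM at 0 h (SD, n = 3 each). Both values are from cells on doxycycline, so they do not measure the knockdown. Of the 7 markers of Ewing sarcoma, 6 were tested and CD99 was listed at 0 in all libraries. In CPM of raw totals, the means of the 6 were 257 for EWSR1, 17 for STEAP1, 13.6 for FLI1, 8.02 for PRKCB, 3.36 for NR0B1 and 1.18 for NKX2-2. Markers of neural crest or mesenchyme had means of 29700 for FN1, 6540 for COL1A1, 6310 for VIM, 40.5 for SOX11 and 5.44 for TWIST1. CD99 lies in a region that the X and Y chromosomes share, and how reads with several matches were counted is not given in the sources used here, so its 0 may not be an absence of the mRNA. Of the 15 markers of blood, epithelium, endothelium and liver, 4 were tested, namely HBB, KRT18, PECAM1 and VWF, and the highest mean among the others was 0.469 CPM of raw totals. The summed level of the 5 blood markers, nearly all of it HBB, was 8.34 to 14.4 CPM at 4 h and 18.8 to 27.3 CPM at 0 h, and that of the 5 epithelial markers, nearly all of it KRT18, was 426 to 558 CPM at 4 h and 380 to 566 CPM at 0 h. The summed 3 endothelial markers lay at 3.32 to 3.97 CPM at 4 h and 3.12 to 4.68 CPM at 0 h, and the part of such markers in the cyclin values was not tested.

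Adenylate- and uridylate-rich elements and Pumilio sites in 3′ untranslated regions are among the sequences known to speed mRNA loss, so they were counted on the sense strand in 1 transcript of each cyclin from GENCODE v29 (GRCh38), the principal one with the longest coding sequence. The letters searched were ATTTA, its extension TATTTAT, the longer TTATTTATT and the Pumilio motif TGTANATA, where N is any base; each TATTTAT also holds an ATTTA. The comparison was with tested genes whose 3′ untranslated region was of similar length. CCNE2 had 11 ATTTA and 3 TATTTAT in 1862 bases, against medians of 4 and 0 in 1736 regions of like length, of which 41.4% held any TATTTAT. It also had 2 TGTANATA, a motif in 33.6% of those regions. CCND1 had 7 ATTTA, the median of its 1476 counterparts, and 1 TATTTAT, held by 58.1% of them. CCNG2 had 9 ATTTA, again the median, 2 TATTTAT, held by 66.3%, and 2 TGTANATA, a motif in 55% of regions of like length. CCND2, which did not pass the count filter, had 8 ATTTA against a median of 12. It also had 1 TATTTAT and 1 TGTANATA, found in 73.8% and 62.8% of regions of like length. CCND3 had 2 ATTTA, CCNG1 had 3 and CCNL1 had 2, whereas CCNE1 and CCNL2 had none, though 55.3% and 68.2% of regions as long as theirs hold one. CCNL2 had 2 TGTANATA and CCNL1 had 1, motifs found in 16.9% and 15.8% of regions of like length. TTATTTATT was in none of the 9.

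The 3 TATTTAT sites of CCND1, on chromosome 11, and CCNG2, on chromosome 4, are shown to give the element in its context. Each is given in 30 bases of sense sequence with the motif in capitals. Those of CCNE2, which held the most, and that of CCND2 are not shown. A match describes letters and shows no working element.
CCND1 site, first motif base at position 1423 of the 3′ untranslated region: gctaaaaagtaTATTTATtgcagaggatgt
CCNG2 site, first motif base at position 158: gcctattttcaTATTTATcctaagccatca
CCNG2 site, first motif base at position 3991: agattgcttgtTATTTATggtcaaatggtg

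At 4 h, where 23.3% of all tested genes were called higher and 24.6% lower, 2 of the 8 tested cyclins were called higher, CCND3 and CCNL2, and none lower. At an unadjusted p under 0.05 none was lower either, nor with DESeq2. With the replicate number as a block, which pairs libraries of the same number, CCND1 joined the higher ones and CCNE2 was lower, making 3 higher and 1 lower, against 34.8% higher and 30.8% lower over all tested genes in that model. The median log2 change of the 8 was 0.028, against 0.054 over all tested genes. With library totals it was -0.12, against -0.096 over all tested genes. Scaled to ribosomal protein mRNAs, where the median gene stood at -0.32, the median of the 8 was -0.34, and the count became 1 higher, CCNL2, and 4 lower, CCNE1, CCNE2, CCNG1 and CCNL1, against 1.21% higher and 45.7% lower over all tested genes in that scaling. The share of cyclins called higher was near that of all genes both without and with the block under TMM. So was the share called lower when scaled to ribosomal protein mRNAs.

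**Figure D1:**
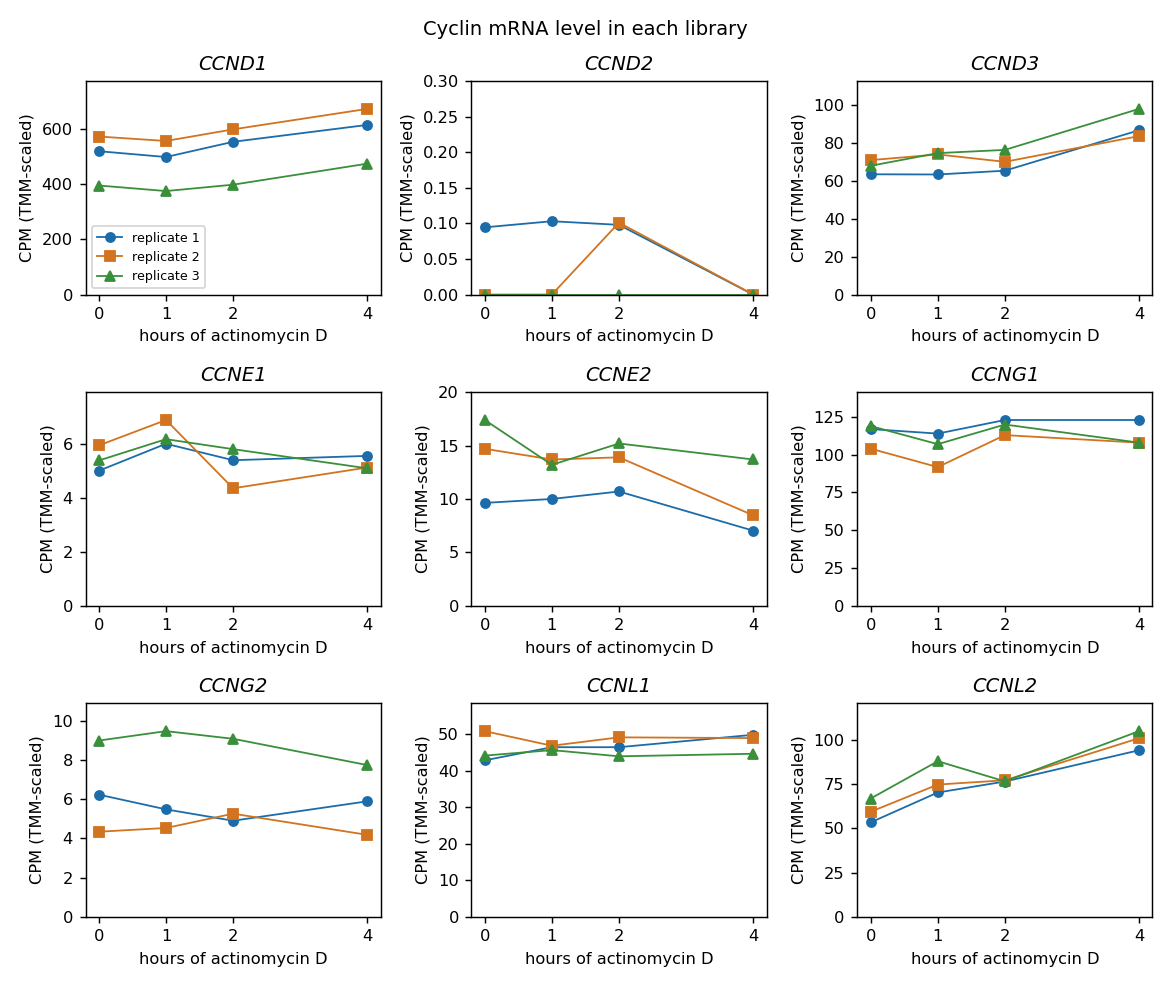
Level of each of the 9 cyclins in each of the 12 libraries, in TMM-scaled CPM on axes that start at 0, against hours of actinomycin D; lines join libraries with the same replicate number. CCNL2 climbed in all 3 replicates to 94.2, 101 and 105 CPM at 4 h, against 53.4, 59.4 and 66.9 at 0 h, while CCND2 stayed at or under 0.103 CPM.

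The D cyclins were dominated by CCND1. In replicates 1, 2 and 3, CCND1 had 518, 571 and 394 CPM at 0 h, 497, 555 and 374 CPM at 1 h, 552, 597 and 397 CPM at 2 h, and 613, 671 and 473 CPM at 4 h. Replicate 3 was the lowest at all 4 times, and the 4 h and 0 h libraries overlapped, yet each replicate was higher at 4 h than at its own 0 h. Without the block, the fitted log2 change at 4 h came to 0.24 (SE 0.19, adjusted p = 0.3125). With the replicate block it was 0.25 (adjusted p = 2.32e-07), and without replicate 3 it was 0.22 (adjusted p = 0.03726). With 1 library left out at a time and no block it ran between 0.087 without replicate 3 at 0 h and 0.377 without replicate 3 at 4 h (adjusted p 0.1398 to 0.7482), and it was 0.135 without replicate 2 at 4 h. Scaled to ribosomal protein mRNAs the sign turned, to -0.13 (adjusted p = 0.6125). At 4 h against 2 h the log2 change of CCND1 was 0.18 (adjusted p = 0.5453; with the block 0.19, adjusted p = 3.151e-05). Its slope was 0.069 log2 per hour (adjusted p = 0.2201; with the block 0.070, adjusted p = 8.5e-09) and turned to -0.031 scaled to ribosomal protein mRNAs (adjusted p = 0.6132).

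CCND3 was called higher at 4 h and not at 1 or 2 h. A bend in its course was not called (change of rate after 2 h 0.28, SE 0.16, edgeR adjusted p = 0.5209). It had 63.6, 71.1 and 68.1 CPM in replicates 1, 2 and 3 at 0 h, 63.5, 74.1 and 74.8 CPM at 1 h, 65.5, 70.2 and 76.5 CPM at 2 h, and 86.9, 83.8 and 98.2 CPM at 4 h. The 4 h libraries lay above all libraries of the earlier times. At 4 h CCND3 was 1.33-fold higher than at 0 h (log2 change 0.41, SE 0.089, edgeR adjusted p = 0.002326) in 3 of 3 replicates, and its log2 change was 0.32 without replicate 3 (adjusted p = 0.01013). Against 2 h it was 1.27-fold higher (log2 change 0.34, SE 0.089, adjusted p = 0.01419). That call was lost without replicate 1 at 2 h (adjusted p = 0.05828) or replicate 3 at 4 h (adjusted p = 0.06312), and with library totals (adjusted p = 0.08049). Scaled to ribosomal protein mRNAs, the log2 change of CCND3 at 4 h was 0.036 (adjusted p = 0.7784), no longer a call, whereas with library totals it was 0.26 (adjusted p = 0.04605).

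CCND2, the third D cyclin, was at the limit of detection. It had 1 count in each of 4 libraries and none in the other 8, and its highest level was 0.103 CPM. A count of 0 in these libraries allows up to 0.262 to 0.340 CPM, the worth of 3 counts, so neither its presence nor a change could be measured at this depth.

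The E cyclins were low, at 43 to 73 counts per library for CCNE1 and 62 to 198 for CCNE2. CCNE2 had 9.63, 14.7 and 17.4 CPM in replicates 1, 2 and 3 at 0 h, 10.0, 13.7 and 13.2 CPM at 1 h, 10.7, 13.9 and 15.2 CPM at 2 h, and 7.03, 8.47 and 13.7 CPM at 4 h. Each replicate was lower at 4 h than at 0 h, but the spread between replicates was as wide as the change and the groups overlapped. The fitted log2 change at 4 h, -0.52 (SE 0.26, adjusted p = 0.1207), was the lowest of the 8 tested cyclins and was not called. With the replicate block CCNE2 fell by 0.52 on the log2 scale (adjusted p = 0.0007688), and without replicate 3 by 0.67 (adjusted p = 0.02969). With 1 library left out at a time and no block, the log2 change ran between -0.845 and -0.333 (adjusted p 0.0184 to 0.3537). It passed the threshold without replicate 1 at 0 h (-0.72, adjusted p = 0.03652) or replicate 3 at 4 h (-0.845, adjusted p = 0.0184) and in none of the other 10 fits, and it shrank most without replicate 3 at 0 h (-0.336) or replicate 1 at 4 h (-0.333).

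At 4 h against 2 h the log2 change of CCNE2 was -0.44 (adjusted p = 0.261; with the block -0.45, adjusted p = 0.005594), and at 2 h against 0 h it was -0.076 (adjusted p = 0.9009; with the block -0.068, adjusted p = 0.6987). The change of rate was not called in either model (adjusted p = 0.8125, with the block 0.2501), and in replicate 3 the larger part of the drop came before 2 h. Scaled to ribosomal protein mRNAs, its slope was -0.22 log2 per hour (adjusted p = 0.008028), an apparent half-life of 4.58 h (95% interval 2.87 to 11.3 h). Of the 4 cyclins called lower in that scaling this was the shortest estimate, but their intervals overlap and their order was not tested. The half-life of CCNE2 was 6.27 h with library totals and 8.34 h under TMM, from slopes that were not called. Half-life intervals here do not cover the choice of scaling. Exons of CCNE2 and of INTS8, a subunit gene of the Integrator complex, overlap on opposite strands, and the strand setting of the counting is not given in the sources used here. INTS8 had 26.1 ± 1.11 CPM at 4 h and 23.7 ± 0.617 CPM at 0 h (SD, n = 3 each; log2 change 0.14, adjusted p = 0.1652), and its part in the CCNE2 counts was not tested.

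CCNE1, the other E cyclin, had 5.00, 5.94 and 5.38 CPM in replicates 1, 2 and 3 at 0 h, 6.00, 6.88 and 6.17 CPM at 1 h, 5.39, 4.35 and 5.80 CPM at 2 h, and 5.55, 5.12 and 5.09 CPM at 4 h. The 1 h libraries lay above all the 0 h libraries, by so little that the log2 change of 0.22 (SE 0.14, edgeR adjusted p = 0.7908) was not called. At 4 h the groups overlapped and the log2 change was -0.050 (SE 0.15, adjusted p = 0.8108). Scaled to ribosomal protein mRNAs it was -0.42 (adjusted p = 0.04031), with an apparent half-life of 7.49 h (95% interval 4.67 to 19.0 h). That half-life was 13.4 h with library totals and 29.3 h under TMM, from slopes that were not called.

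CCNG1 was abundant and flat. It had 117, 104 and 119 CPM in replicates 1, 2 and 3 at 0 h, 114, 91.8 and 107 CPM at 1 h, 123, 113 and 120 CPM at 2 h, and 123, 108 and 108 CPM at 4 h. The groups overlapped at every time. The fitted log2 change at 4 h came to -0.0029 (SE 0.088, 95% interval -0.19 to 0.19, edgeR adjusted p = 0.9811), so a change of the size of CCND3's lay outside the interval. Scaled to ribosomal protein mRNAs, CCNG1 fell by 0.37 on the log2 scale (adjusted p = 0.01319), with an apparent half-life of 11.2 h (95% interval 6.81 to 31.7 h). With library totals the half-life was 33.7 h, from a slope that was not called. Under TMM the slope was above 0, at 0.011 log2 per hour, and gave no half-life.

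CCNG2 was scarce, at 40 to 109 counts per library, and varied more between replicates than over time. It had 6.23, 4.34 and 8.99 CPM in replicates 1, 2 and 3 at 0 h, 5.48, 4.53 and 9.47 CPM at 1 h, 4.90, 5.26 and 9.08 CPM at 2 h, and 5.89, 4.18 and 7.74 CPM at 4 h. Replicate 3 was the highest at all 4 times. Its log2 change came to -0.14 at 4 h (SE 0.35, adjusted p = 0.7694; with the replicate block -0.13, adjusted p = 0.4583). The 95% interval without the block, -0.91 to 0.63, holds changes of the size of CCND3's in either direction, but its width includes the spread between replicates. Within replicates 1, 2 and 3 the log2 ratio of 4 h to 0 h was -0.0807, -0.0519 and -0.215.

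The L cyclins parted. CCNL2 had 53.4, 59.4 and 66.9 CPM in replicates 1, 2 and 3 at 0 h, 70.3, 74.8 and 88.0 CPM at 1 h, 76.5, 77.2 and 76.6 CPM at 2 h, and 94.2, 101 and 105 CPM at 4 h. All libraries of 1, 2 and 4 h lay above all of those of 0 h, and those of 4 h above all the others. At 4 h CCNL2 was 1.67-fold higher than at 0 h (log2 change 0.74, SE 0.095, edgeR adjusted p = 3.923e-05) in 3 of 3 replicates. The log2 change was 0.77 without replicate 3 (adjusted p = 6.449e-06), 0.59 with library totals (adjusted p = 0.00043) and 0.37 scaled to ribosomal protein mRNAs (adjusted p = 0.006215), higher in all of them. Of all tested genes, 97.3% had a lower log2 change.

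The CCNL2 libraries lay above those of 0 h after the first hour, a difference that was called at 1 h in some models only. At 1 h, where 0.172% of genes were called higher and 1.16% lower, none of the 8 cyclins was called in edgeR, 1 was higher at an unadjusted p under 0.05, and 1 with DESeq2. That one was CCNL2, 1.3-fold higher (log2 change 0.38, SE 0.095, adjusted p = 0.0934; with the replicate block 7.217e-05, with DESeq2 0.02848; without replicate 3 at 0 h 0.04743; over the libraries left out one at a time 0.04743 to 0.2875). At 2 h, where 3.39% of genes were called higher and 11.7% lower, CCNL2 was the only cyclin called, at 1.28-fold (log2 change 0.36, SE 0.096, adjusted p = 0.02355). That call was lost when replicate 1 or 2 at 0 h was left out (adjusted p = 0.07774 and 0.06246) or replicate 1 or 2 at 2 h (0.05593 and 0.0752), and it was 0.002601 without replicate 3. The adjusted p was 0.07165 with library totals and 0.1675 under ribosomal protein mRNA scaling.

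CCNL2 rose further after 2 h. At 4 h against 2 h, a comparison with 10.2% of genes called higher and 14.2% lower, CCNL2 and CCND3 were the 2 cyclins called, both higher, CCNL2 by 1.31-fold (log2 change 0.39, SE 0.095, edgeR adjusted p = 0.01014; with library totals 0.05395, scaled to ribosomal protein mRNAs 0.2595). Over the whole course 25.7% of genes had a rising slope and 25.5% a falling one, and CCNL2 and CCND3 were again the 2 cyclins called. The slope of CCNL2 was 0.17 log2 per hour (SE 0.022, adjusted p = 4.819e-05; 0.069 and adjusted p = 0.02332 scaled to ribosomal protein mRNAs) and that of CCND3 was 0.10 (SE 0.021, adjusted p = 0.001599; 0.0011 and adjusted p = 0.9744 in the same scaling). For the change of rate after 2 h, with 0.384% of genes called higher and 0.227% lower, none of the 8 cyclins was called by edgeR or DESeq2, nor at an unadjusted p under 0.05.

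CCNL1 stayed level. It had 42.9, 50.9 and 44.2 CPM in replicates 1, 2 and 3 at 0 h, 46.5, 46.9 and 45.7 CPM at 1 h, 46.5, 49.2 and 44.0 CPM at 2 h, and 49.9, 49.0 and 44.7 CPM at 4 h. The groups overlapped at every time. The fitted log2 change at 4 h came to 0.058 (SE 0.082, 95% interval -0.12 to 0.23, edgeR adjusted p = 0.587). The sign turned to -0.31 (adjusted p = 0.009612) when scaled to ribosomal protein mRNAs, with an apparent half-life of 11.7 h (95% interval 7.62 to 25.1 h). With library totals the half-life was 38.2 h, from a slope that was not called. Under TMM the slope was above 0, at 0.0145 log2 per hour, and gave no half-life.

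**Figure D2:**
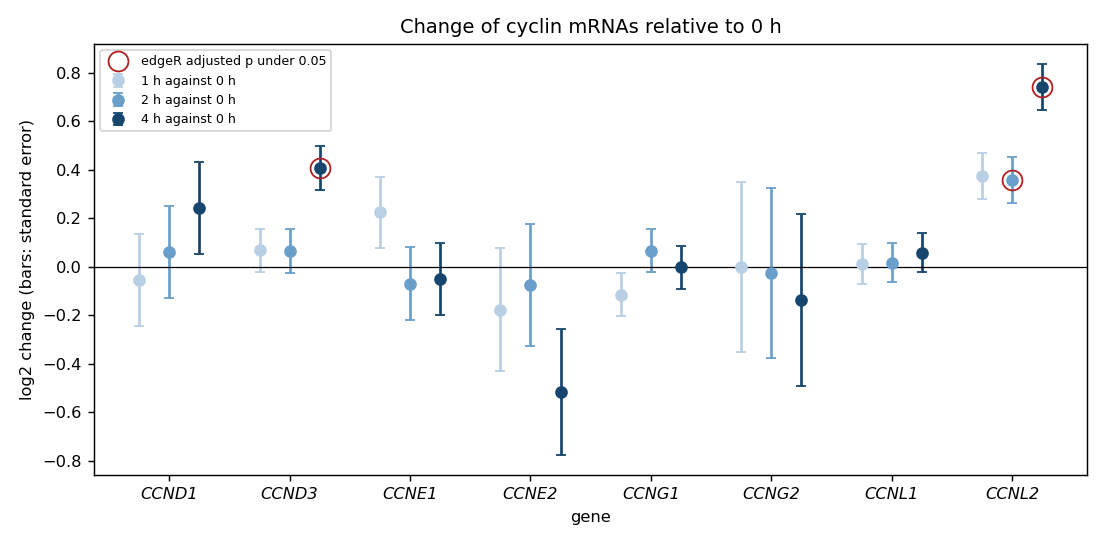
Log2 change of the 8 tested cyclins at 1, 2 and 4 h against 0 h, with the standard error of edgeR's quasi-likelihood fit as bars; rings mark an adjusted p under 0.05 in the model without the replicate block. CCNL2 is the highest at 4 h, at 0.74, and CCNE2 the lowest, at -0.52 and not called.

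The ratio of a pair of mRNAs within a library does not depend on how libraries are scaled, so the members of each class were compared in that way. Slopes of the log2 ratio on hours were tested with a two-sided exact permutation test over the 369600 arrangements of the 12 libraries. The p-values were adjusted over the 4 pairs. The slope passed the threshold for the L pair, and the slopes were not compared between pairs. The log2 ratio of CCNL1 to CCNL2 was -0.318, -0.222 and -0.596 in replicates 1, 2 and 3 at 0 h, -0.596, -0.674 and -0.943 at 1 h, -0.717, -0.650 and -0.801 at 2 h, and -0.917, -1.04 and -1.24 at 4 h. It was lower at 4 h in 3 of 3 replicates with no overlap, and the ratio stood at 0.621 times that of 0 h. The slope was -0.16 log2 per hour (SE 0.032, exact p = 0.0006575, adjusted p = 0.00263). With times permuted within each replicate number the adjusted exact p was 0.003472, and without replicate 3 the slope was -0.16 (adjusted exact p = 0.009524).

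The other pairs gave no slope beyond the spread. CCND1 to CCND3 had a slope of -0.030 log2 per hour (SE 0.064, adjusted exact p = 0.6293), CCNE1 to CCNE2 one of 0.092 (SE 0.077, adjusted exact p = 0.5194) and CCNG1 to CCNG2 one of 0.040 (SE 0.082, adjusted exact p = 0.6293). Within replicates the 4 h value was on one side of the 0 h value in 3 of 3 for each of these pairs, lower for CCND1 to CCND3 and higher for the others, with overlapping groups. With times permuted within replicate numbers their adjusted exact p was 0.1971 for each.

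**Figure D3:**
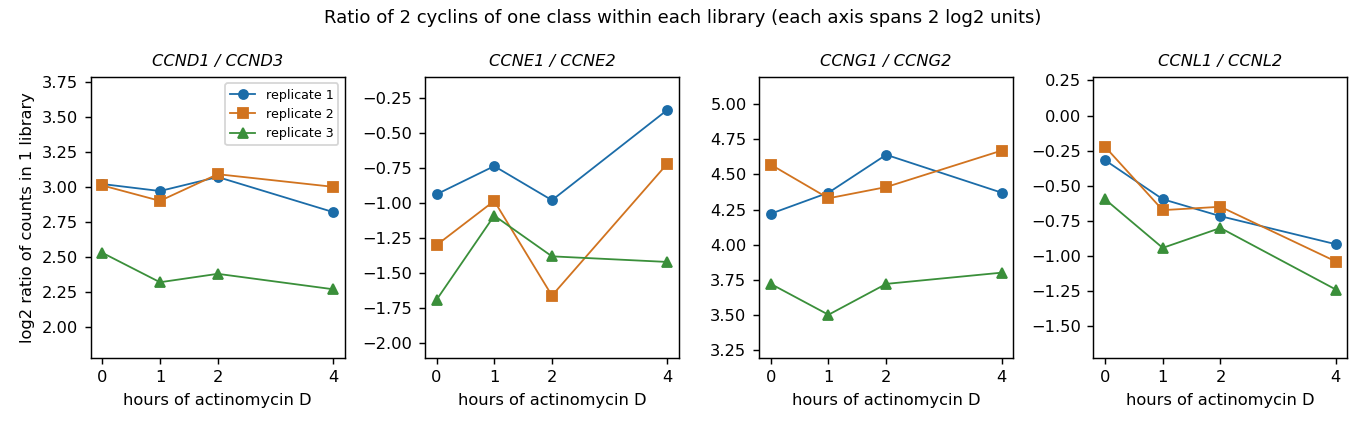
Log2 ratio of the counts of a pair of cyclins of one class within each library, against hours of actinomycin D, with a line per replicate number; each axis spans 2 log2 units. The ratio of CCNL1 to CCNL2 lies at -0.917 to -1.24 at 4 h and at -0.222 to -0.596 at 0 h, while in the panels of CCND1 to CCND3 and CCNG1 to CCNG2 replicate 3 is the lowest at all 4 times.

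Per length of the chosen transcript, the cyclins covered a wide range of levels. At 4 h, CPM per kilobase averaged 136 ± 23.6 for CCND1, 46.0 ± 3.52 for CCNG1, 43.4 ± 2.37 for CCNL2, 43.0 ± 3.64 for CCND3 and 20.0 ± 1.16 for CCNL1 (SD, n = 3 each). CCNE2 followed at 2.92 ± 1.05, CCNE1 at 2.57 ± 0.126 and CCNG2 at 1.07 ± 0.322. CCNG1, CCNL2 and CCND3 overlapped, as did CCNE2 and CCNE1, and the other neighbours did not. At 0 h the averages per kilobase were 115 ± 21.1 for CCND1, 46.1 ± 3.31 for CCNG1, 32.4 ± 1.81 for CCND3, 26.0 ± 2.93 for CCNL2, 19.3 ± 1.80 for CCNL1, 4.18 ± 1.18 for CCNE2, 2.66 ± 0.231 for CCNE1 and 1.18 ± 0.423 for CCNG2. There CCND3 was above CCNL2 in level without overlap, and only CCNE2 and CCNE1 overlapped. Within classes, CCND1 was above CCND3, CCNG1 above CCNG2 and CCNL2 above CCNL1 in level at both times, without overlap.

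The cyclin mRNAs were spread over the distribution of all tested genes. At 4 h the lower quartile of all tested genes stood at a log2 change of -0.40 and the upper one at 0.31. CCNE2 had 21.4% of genes below it, CCNG2 36.6%, CCNE1 42.3%, CCNG1 45.5%, CCNL1 50.3%, CCND1 67.5%, CCND3 85.2% and CCNL2 97.3%. CCNE2 thus lay under the lower quartile, and CCND3 and CCNL2 lay over the upper one.

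**Figure D4:**
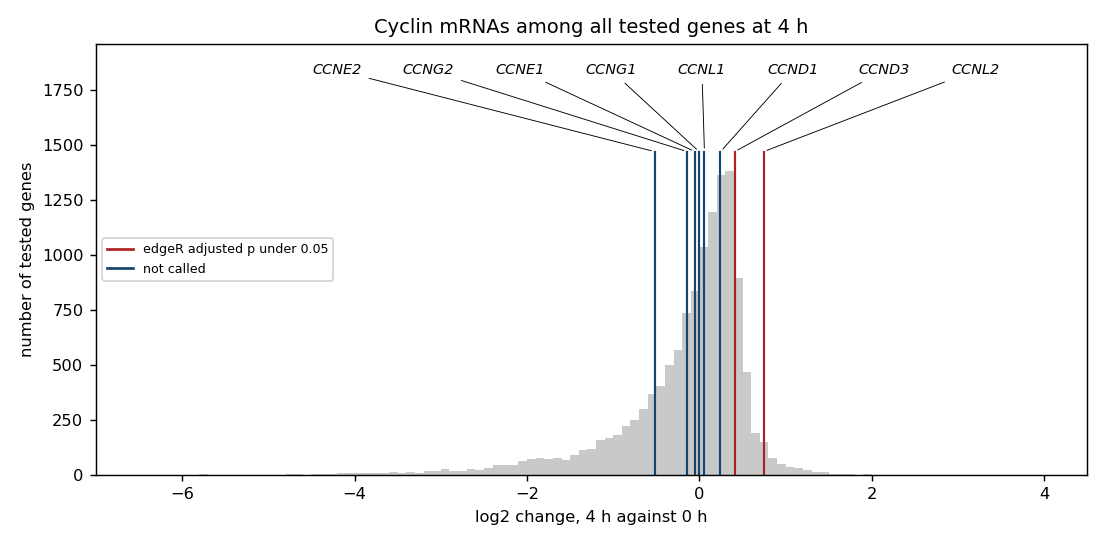
Histogram of the log2 change at 4 h against 0 h over the 12775 tested genes in bins of 0.1, with the 8 tested cyclins as vertical lines (red where the edgeR adjusted p was under 0.05). The cyclins run between -0.52, the value of CCNE2, and 0.74, that of CCNL2.

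Larger falls stood among other genes of the cyclin system, which are many more than the 8 cyclins. Those named below were mostly taken by smallest adjusted p, and some genes called higher are counted but not named. The counts of each list are to be read against all tested genes at 4 h, of which 24.6% were lower and 23.3% higher, 30.8% and 34.8% with the replicate block, and 45.7% and 1.21% scaled to ribosomal protein mRNAs. Among the other cyclins, 15 of 20 were tested and 6 were lower and 2 higher at 4 h, with a median log2 change of -0.23 (8 lower and 4 higher with the replicate block, 8 and 0 scaled to ribosomal protein mRNAs). CCNT1, the cyclin of the transcription elongation kinase CDK9, stood at 15.8 ± 1.43 CPM at 4 h and 58.6 ± 5.60 CPM at 0 h (SD, n = 3 each; log2 change -1.89, SE 0.10, edgeR adjusted p = 1.957e-08). CCNF, the cyclin and F-box protein that marks substrates for removal, stood at 8.69 ± 0.487 CPM at 4 h and 23.9 ± 4.43 CPM at 0 h (log2 change -1.46), and CCNJL had a log2 change of -1.52. All 3 were lower in each alternative run.

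Of the CDKs 19 of 20 were tested, with 7 lower and 4 higher and a median log2 change of 0.082 (-0.067 with library totals, -0.29 scaled to ribosomal protein mRNAs, and 8 lower and 8 higher with the replicate block). CDK4, a partner of D cyclins, stood at 237 ± 20.7 CPM at 4 h and 191 ± 20.4 CPM at 0 h (SD, n = 3 each; log2 change 0.31, adjusted p = 0.01936), a call lost with library totals (adjusted p = 0.2534), turned to -0.061 when scaled to ribosomal protein mRNAs, and lost without replicate 1 or 2 at 0 h or replicate 3 at 4 h (adjusted p = 0.05676, 0.0836 and 0.08235). CDK6, the other partner of D cyclins, went the other way, to 103 ± 12.1 CPM at 4 h against 158 ± 11.5 CPM at 0 h (log2 change -0.62, adjusted p = 0.0002646). CDK2, the partner of E cyclins, had 93.5 ± 19.8 CPM at 4 h and 79.9 ± 14.1 CPM at 0 h (log2 change 0.23, adjusted p = 0.367; with the replicate block 0.22, adjusted p = 0.001484). The kinase genes with the smallest adjusted p were CDK13 and CDK12, which act on elongating RNA polymerase II and fell by 1.70 and 1.11 on the log2 scale, and CDK16, at 0.40 higher and at 0.026 scaled to ribosomal protein mRNAs. CDK11A and CDK11B, the partners of L cyclins, were looked up after the values were seen: their log2 changes were 0.44 (adjusted p = 0.1149) and 0.37 (adjusted p = 0.09193), and as near-identical copies they can share reads.

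Of the CDK inhibitors 5 of 8 were tested, 1 was lower and none higher, and the median log2 change was -0.081 (2 lower with the replicate block, 3 scaled to ribosomal protein mRNAs). The lower one was CDKN1B, which encodes p27, the inhibitor of cyclin E with CDK2. It stood at 4.43 ± 2.25 CPM at 4 h and 26.6 ± 3.67 CPM at 0 h (SD, n = 3 each; log2 change -2.58, SE 0.31, edgeR adjusted p = 2.08e-05), 5.97-fold lower. CDKN1A, which encodes p21, had 71.9 ± 8.63 CPM at 4 h and 76.0 ± 9.10 CPM at 0 h (log2 change -0.081, adjusted p = 0.6909; -0.45 and 0.03412 scaled to ribosomal protein mRNAs). CDKN2A, the gene of the CDK4 and CDK6 inhibitor p16, had 17 counts in all 12 libraries together and was not tested.

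The RB and E2F list, made up of genes of the RB, E2F and TFDP families, had all 13 genes tested, 6 lower and none higher. Its median log2 change was -0.54 (7 lower and 3 higher with the replicate block). E2F6 stood at 6.18 ± 0.252 CPM at 4 h and 18.4 ± 0.804 CPM at 0 h (SD, n = 3 each; log2 change -1.57), E2F3 had a log2 change of -1.51 and E2F7 one of -0.91, all lower in each alternative run. RB1 had 62.1 ± 7.65 CPM at 4 h and 55.8 ± 9.30 CPM at 0 h (log2 change 0.15, edgeR adjusted p = 0.3938; with the replicate block 0.16, adjusted p = 0.04565).

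The list of ubiquitin ligase parts held 11 genes that act on D or E cyclins or on CDK inhibitors. Of these, 5 were lower and 2 higher, with a median log2 change of -0.13 (7 and 0 scaled to ribosomal protein mRNAs). AMBRA1, the receptor that marks D cyclins for removal, stood at 27.2 ± 2.18 CPM at 4 h and 75.9 ± 3.92 CPM at 0 h (SD, n = 3 each; log2 change -1.48, edgeR adjusted p = 1.306e-08). CUL1, the scaffold of the SCF ligases, had a log2 change of -0.66 (adjusted p = 2.725e-05) and SKP1, its adaptor, one of 0.36 (adjusted p = 3.896e-05), which turned to -0.0096 scaled to ribosomal protein mRNAs. Of the 12 splicing kinases and SR factors, the field in which L cyclins act, 5 were lower and 1 higher, with a median log2 change of -0.23. With the replicate block 8 were lower and 1 higher, against 30.8% and 34.8% of all genes, and scaled to ribosomal protein mRNAs 10 were lower and 0 higher, against 45.7% and 1.21%. CLK3, a kinase of SR proteins, fell by 0.65 on the log2 scale, SRSF5, an SR splicing factor, by 0.73, and SRPK2, another SR protein kinase, by 0.50.

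**Figure D5:**
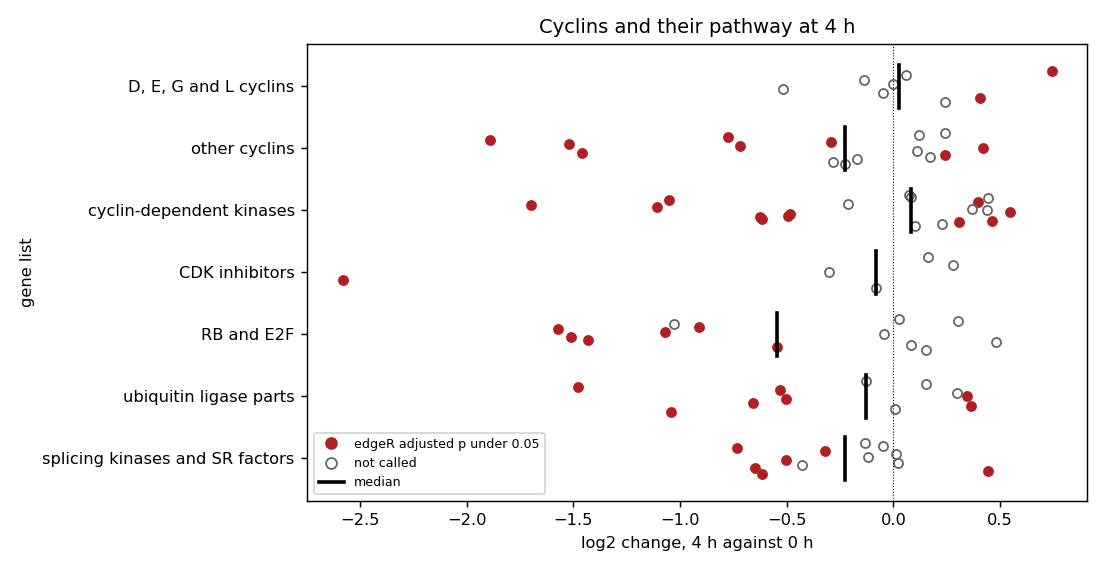
Log2 change at 4 h against 0 h of each tested gene (points) in the D, E, G and L cyclins and 6 lists of the cyclin system, with the median of each list as a bar and filled points where the edgeR adjusted p was under 0.05. The 8 cyclins lie between -0.52 and 0.74, while the other lists reach down to -2.58, the value of CDKN1B. The medians of the CDKs and of the 8 cyclins turn below 0 with library totals and when scaled to ribosomal protein mRNAs.

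The genes whose courses lay nearest to each cyclin were sought among 8910 tested genes with at least 10 CPM. The measure was the root mean square difference of centred log2 CPM over the 12 libraries, which share their depth and scaling. Differences between replicates were not removed, so a near course can share a pattern of replicates as well as a change over time. This bears most on CCND1 and CCNG2, in which replicate 3 stood apart at all 4 times. CCND1 was nearest to RAB3B (0.071) and LINC00152 (0.072), CCND3 to MRPL11 (0.056) and PRKCSH (0.061), CCNE1 to DHX30 (0.10) and HPS4 (0.11), and CCNE2 to USP1 (0.16) and NR2F1 (0.16). CCNG1 was nearest to DNAJC13 (0.057) and ELP2 (0.062), CCNG2 to MKI67 (0.12) and CASC5 (0.13), CCNL1 to TMEM248 (0.046) and STIP1 (0.050), and CCNL2 was near to TYK2 (0.068). Of the 8 cyclins, CCNE2 lay farthest from its nearest course. The other gene of the count table that overlaps a cyclin's exons on the opposite strand, LTO1 (listed as ORAOV1) at CCND1, had 15.3 ± 2.34 CPM at 4 h and 14.1 ± 2.73 CPM at 0 h (SD, n = 3 each; log2 change 0.12, edgeR adjusted p = 0.5844), far under the level of CCND1.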

How the data were processed

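The authors deposited raw read counts per gene symbol, 1 column per library. Per the submitters' processing notes the reads went through FastQC and STAR with hg19; no versions are given. Libraries came from a stranded mRNA kit, per the labels' protocols. The counting program, its annotation and its strand setting are not given in the sources used here. The deposited counts carry no coordinates, so sequences and lengths come from GENCODE v29 (GRCh38) and no genome positions are given.

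Tests used edgeR 4.0.16 (R 4.3.3) with filterByExpr, TMM and the quasi-likelihood fit over all 12 libraries. They were also run on simulated libraries drawn independently, without the pairing by replicate number described below, so that run does not bear on the pairing. The members, lists and tests were chosen with earlier results of these data known. All 9 cyclins are named, with the 3 genes of smallest adjusted p per list among those called at 4 h, 6 main partners and the 2 nearest courses per cyclin; 1 gene that met this rule is not reported here. The lists were other cyclins, CDKs, CDK inhibitors, RB and E2F, ubiquitin ligase parts, and splicing kinases and SR factors.

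The labels share replicate numbers across times, and the numbers paired the libraries: the correlation of their deviations from their time's mean was 0.263 to 0.649 within a number and -0.501 to 0.16 between numbers. All 12 libraries were closest to one of their own number. Replicates differed beyond counting error (chi-square per degree of freedom 4.13 to 15.2). Limits from counts cover counting error only.

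Alternatives were DESeq2 1.42.0, its size factors, library totals, ribosomal protein mRNA scaling, no filter, the replicate block, each library left out, a prior of 2 in place of 0.5 in the ratios and, chosen after seeing the data, replicate 3 left out.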

Additional observations from a re-analysis of the deposited data

How the results depend on the processing

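Of 912 values of single cyclins under the alternatives, 794 kept their direction and their side of the threshold, 79 changed sign without a call in either, 36 gained or lost a call and 3 reversed against a call. The rise of CCNL2 at 4 h and its slope, the rise of CCND3 at 4 h without ribosomal protein mRNA scaling, and the fall of the ratio of CCNL1 to CCNL2 held in every alternative run. The reversals came with ribosomal protein mRNA scaling: CCNL1 at -0.314 at 4 h and -0.0855 per hour and CCNG1 at -0.0892 per hour on the log2 scale, with SKP1 at -0.00962 and CDK4 at -0.0614 at 4 h.

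Under that scaling the genes called lower and higher were 5837 and 155 at 4 h (4 and 1 cyclins), 3857 and 122 at 4 h against 2 h (0 cyclins higher), and 6158 and 101 for the slope (4 and 1 cyclins); 25 were higher at 2 h (0 cyclins) and 30 for the change of rate. Library totals gave 143 genes higher at 2 h (0 cyclins), 1346 at 4 h, 618 at 4 h against 2 h (0 cyclins) and 1464 for the slope. The replicate block gave 802 lower and 322 higher at 1 h (1 cyclin higher) and 2496 and 2037 at 2 h. It gave 2851 and 2820 at 4 h against 2 h (1 and 3 cyclins) and 697 and 944 for the change of rate. At 4 h 3934 genes were lower and 4444 higher with the block (1 and 3 cyclins), and for the slope 3970 and 4656 (1 and 3 cyclins). No other call on a cyclin changed with the block beyond those given above. DESeq2 gave 40 genes higher at 1 h (1 cyclin) and 68 lower and 77 higher for the change of rate. No filter gave 264 higher at 2 h. Without replicate 3, 9 were higher at 1 h, 274 at 2 h and 14 lower for the change of rate. At 4 h 3309 genes were then lower and 2890 higher (1 and 3 cyclins), and for the slope 3381 and 3182 (1 and 3 cyclins).

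With 1 library left out at a time, the ranges were 44 to 153 lower and 5 to 25 higher at 1 h (0 to 1 cyclins higher), and 135 to 433 higher at 2 h (0 to 1). At 4 h they were 2893 to 3251 lower (0 to 1 cyclins) and 2306 to 2955 higher (2 cyclins). For the slope they were 2960 to 3324 lower (0 to 1) and 2710 to 3237 higher (2). They were 807 to 1236 higher at 4 h against 2 h (1 to 2), and 1 to 23 lower and 4 to 43 higher for the change of rate. The slope of the log2 ratio ranged between -0.0647 and 0.0223 for CCND1 to CCND3 and between -0.00648 and 0.0970 for CCNG1 to CCNG2. The cause of these shifts was not tested. CCNE1, CCNE2 and CCNG2, at 40 to 198 counts per library, are the cyclins that depth limits most, and CCND2 could not be measured. No loss can be placed on an absolute scale with these relative values.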
